A study of Ciona robusta with 6 samples.

Results

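A set of 31 gene models of Ciona robusta had lower transcript levels in embryos injected with Cas9 and a guide RNA against Brachyury than in embryos injected with Cas9 and a guide RNA against GFP, in each of 3 replicate numbers. The models were chosen by that difference. A model had to have a normalised count of 10 or more in at least 3 of the 6 libraries, and log2(CrBra + 1) minus log2(CrGFP + 1) had to be -0.8 or lower for replicate numbers 1, 2 and 3. Of 15284 gene models in the table, 11953 passed the filter on low values, and 32 of these (0.268%) met the limit in all 3 pairs. KH.S1404.1, taken as Brachyury from general knowledge and not from the table, was 1 of the 32 and was set apart by the rule. KH.C11.313 and KH.L128.12 were set apart too and did not meet the limit. Because these values chose the 31 models, their differences between the guides are given as a description, and the model fits on them, given near the end, support nothing about the models. A lower transcript level does not by itself show that a model depends on Brachyury, so the models are called here by their rule.

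In both groups unfertilized eggs, for which the labels name no strain or other genotype, were injected with a ribonucleoprotein mix of crRNA, tracrRNA and Cas9 protein. The CrBra group received the guide against Brachyury and the CrGFP group the guide against GFP, a jellyfish gene that serves as the control target. Embryos grew at 21 degrees Celsius in artificial seawater to Hotta stage 14, a neurula stage, and whole embryos were collected in pools of 50 to 85, with 3 libraries per group. Replicates are named biological in the design text, and what libraries of the same number share is not stated. The share of cells with an edited gene was not analysed here. In such pools, fewer cells of a type and less RNA per cell cannot be told apart.

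Brachyury is a T-box transcription factor, a protein that binds short DNA motifs and turns on genes nearby. In the tunicate embryo it is made in the cells that become the notochord, the stiff rod along the larval tail around which the tail muscle and nerve cord lie. Notochord cells stop dividing early, crawl between one another until they form a single row, and then secrete a sheath of matrix, and genes for adhesion, the cytoskeleton and matrix are known targets of Brachyury in this animal. The deposited table gives only KH2012 identifiers, and 0 of the 15284 matched the RefSeq gene table of this species that was used here. The 31 models therefore carry no gene name, role or sequence below, and 0 of the 73 symbols in 8 gene lists for the notochord, other tissues and planar polarity could be paired with an identifier. Markers of other cell types could not be read for the same reason. The models are ordered by size of difference, level and the share of expression that was left.

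Reads assigned to gene models, recovered from the deposited values, numbered 13191537 to 16094085 per library, and were found for 13924 to 14067 models per library. A count of 0 allows up to 3 reads, a normalised count of 2.54 to 3.35 depending on the library, and this floor and the intervals below cover counting error only. KH.S1404.1 had normalised counts of 949.5, 582 and 1058 in control libraries 1 to 3, against 298, 205 and 313 in CrBra libraries 1 to 3. A cut by Cas9 need not lower a transcript, so this level does not measure editing.

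Over the 31 models the mean of the 3 pair differences ranged from -2.80 to -1.18 on the log2(value + 1) scale, with a median of -1.68, against a median of 0.006 over all 11953 tested models. The mean difference was -2 or lower in 5 models, between -2 and -1.5 in 17 and above -1.5 in 9. A difference of -1 or lower, which is 2-fold, was present in all 3 pairs in 28 of the 31. Differences of the same size in the other direction (0.8 or more in all 3 pairs) were present in 6 of the tested models. In 29 of the 31 models every CrGFP value lay above every CrBra value, and among all tested models 1.14% were ordered this way, but the rule used the same contrast and nothing is read from that count. In the other two, KH.C7.65 and KH.C7.721, the groups overlapped although each CrBra library lay under the control of its own number.

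**Figure D1:**
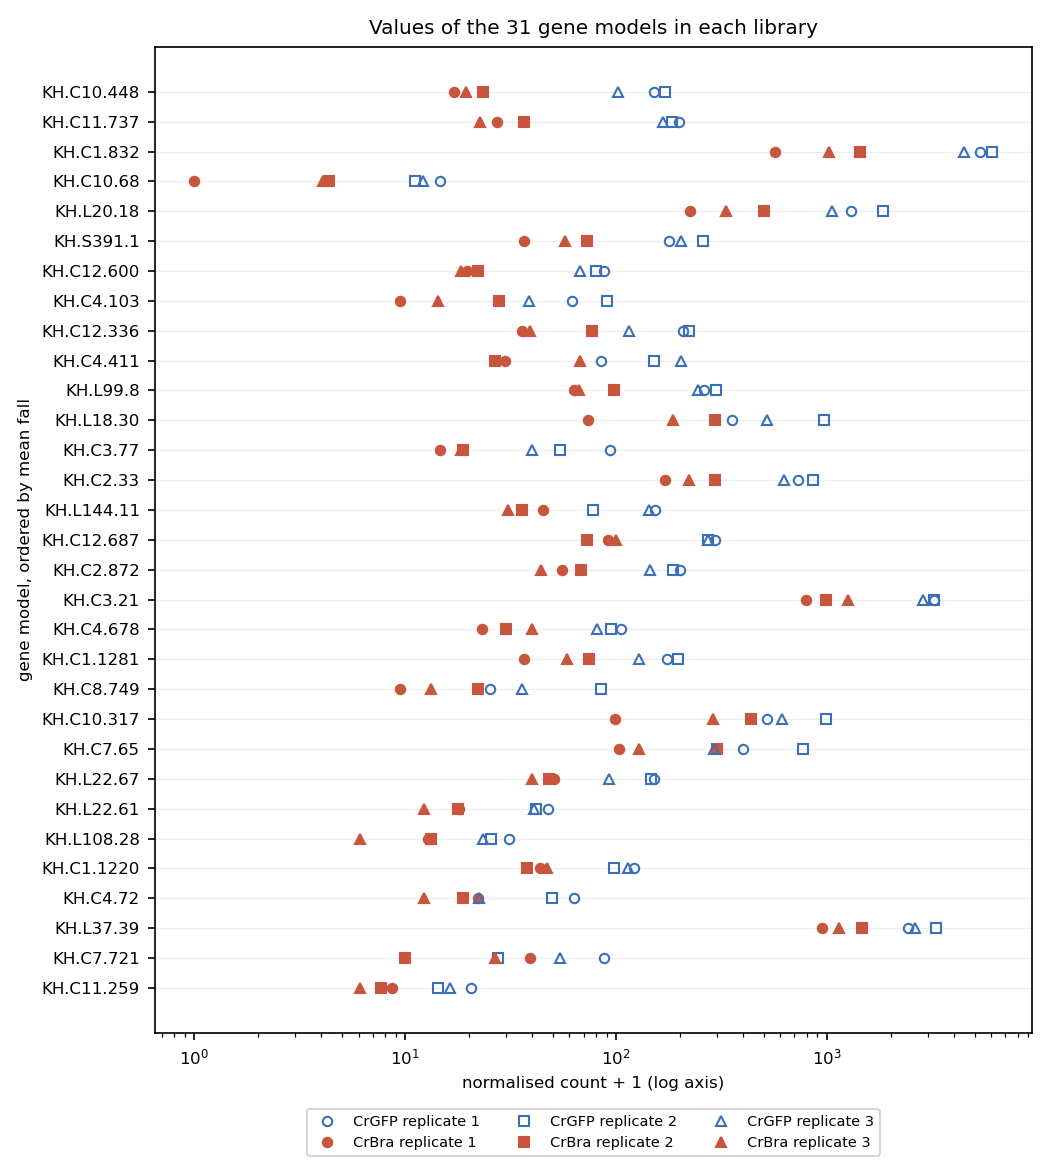
Normalised count + 1 (log axis) of the 31 gene models in each of the 6 libraries, ordered from the largest mean fall at the top. Open blue symbols are CrGFP and filled red symbols CrBra, with a circle, square and triangle for replicates 1, 2 and 3, and the red symbols lie left of the blue ones except in KH.C7.65 and KH.C7.721, where they overlap.

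The largest mean difference belonged to KH.C10.448. Its normalised count was 150.2, 169.8 and 101 in the control libraries 1 to 3 and 16.1, 22.3 and 18.4 in CrBra libraries 1 to 3. The CrBra libraries lay close together and far under the lowest control. The mean difference was -2.80 ± 0.38 (SD, n = 3 pairs), and 10.71%, 13.2% and 18.3% of the control level was kept in pairs 1, 2 and 3.

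KH.C11.737 had a normalised count of 197, 183 and 165 in the control libraries 1 to 3 and 26.2, 35.7 and 21.5 in CrBra libraries 1 to 3. Its control values were even, the highest being 1.19 times the lowest. With a mean difference of -2.69 ± 0.32 (SD, n = 3 pairs), it kept 13.3%, 19.5% and 13.03% of control in the 3 pairs. KH.S391.1 had 177, 257 and 203 in the control libraries 1 to 3 and 35.6, 71.4 and 56.3 in CrBra libraries 1 to 3. Again no CrBra value reached the lowest control value, and the mean difference was -1.98 ± 0.26 (SD, n = 3 pairs).

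The most abundant of the 31 was KH.C1.832, whose mean control level stood at percentile 96.1 of all tested models. It had a normalised count of 5306, 6058 and 4436 in the control libraries 1 to 3 and 564, 1425 and 1019 in CrBra libraries 1 to 3. The CrBra values were low in all 3 libraries and lowest in replicate 1, and its mean difference was -2.48 ± 0.65 (SD, n = 3 pairs), the third of the set by size. It kept 10.6%, 23.5% and 23.0% of control in pairs 1, 2 and 3.

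KH.C3.21, second by level, had 3208, 3202 and 2846 in the control libraries 1 to 3 and 793, 991 and 1250.4 in CrBra libraries 1 to 3. Controls were even, and the CrBra values were highest in replicate 3, with a mean difference of -1.63 ± 0.42 (SD, n = 3 pairs). KH.L37.39, the next by level, kept more of its expression than any other member on average, 42.3%, and its differences were -1.35, -1.17 and -1.21 in pairs 1, 2 and 3. Its values were 2415, 3289 and 2616 in the control libraries 1 to 3 and 945, 1465 and 1133 in CrBra libraries 1 to 3. This was the narrowest range over pairs in the set, 0.19 on the log2 scale.

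KH.L20.18 had a normalised count of 1295, 1839 and 1059 in the control libraries 1 to 3 and 222, 500.1 and 330.5 in CrBra libraries 1 to 3. The CrBra libraries followed the order of their controls only in part, since replicate 2 was highest in both groups and replicate 1 was lowest in CrBra alone. Its mean difference was -2.03 ± 0.45 (SD, n = 3 pairs). KH.C2.33 had 725, 856 and 626 in the control libraries 1 to 3 and 169, 292 and 221 in CrBra libraries 1 to 3, with a mean difference of -1.71 ± 0.33 (SD, n = 3 pairs). KH.C10.317 had 519, 985 and 608 in the control libraries 1 to 3 and 98.2, 433 and 286 in CrBra libraries 1 to 3. Here replicate 2 was high with either guide, its CrBra value lay close to the control of replicate 1, and the mean difference was -1.55 ± 0.73 (SD, n = 3 pairs).

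Most of the summed difference in normalised count came from these abundant models. Summed over the 31 models, the normalised count was 17011, 20775 and 15336 in control libraries 1 to 3, and 3653, 6538 and 5293 in CrBra libraries 1 to 3. That was 0.122%, 0.139% and 0.106% of the control totals, and 0.0268%, 0.0444% and 0.0365% of the CrBra totals. KH.C1.832 alone made up 34.0% of the summed loss of 12546, and with KH.C3.21 (16.5%), KH.L37.39 (12.7%) and KH.L20.18 (8.35%) it made up 71.6%. The share kept was similar with and without these 4 models, but the rule holds every model under 57.4% of control in each pair, so this is a description. The sum over all 31 kept 21.5%, 31.5% and 34.5% in pairs 1, 2 and 3, and the sum over the other 27 kept 23.6%, 33.8% and 35.6%.

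Levels spanned a wide range. The mean control value ran from 11.6 to 5267, with a median of 145 against 418 over all tested models. It was 1000 or more in 4 of the 31 models, from 100 to 1000 in 16 and under 100 in 11. Of all tested models, 29.8%, 45.7% and 24.6% lay in these classes. Counts are not divided by transcript length, so these levels order the models by reads and not by molecules.

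**Figure D2:**
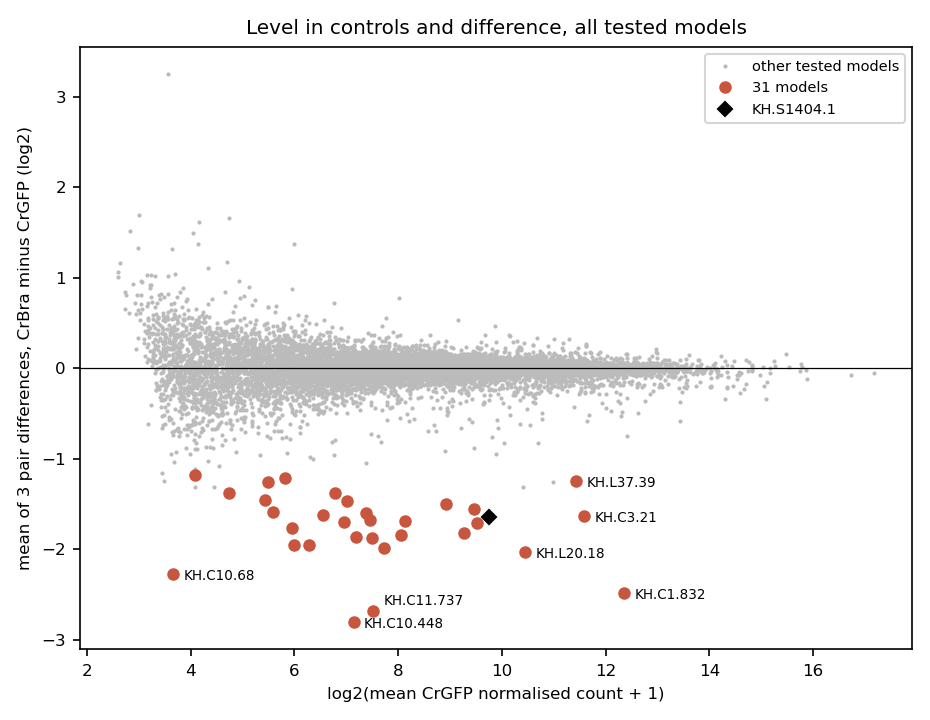
Mean of the 3 pair differences, CrBra minus CrGFP (log2), against log2 of the mean CrGFP normalised count + 1, for all 11953 tested gene models (grey), the 31 models (red) and KH.S1404.1 (black diamond). The 31 lie between -2.80 and -1.18 at low, middle and high levels.

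At the low end, counting error was large. KH.C10.68 had the lowest control level. Its reads numbered 14, 10 and 11 in control libraries 1 to 3 and 0, 3 and 3 in CrBra libraries 1 to 3. The exact 95% binomial interval of the share of control kept reached up to 26.3% in pair 1. It reached up to 127.9% in pair 2 and 103.8% in pair 3, so counting error did not exclude equal levels in those pairs. The mean difference of -2.27 on the log2(value + 1) scale rested on the pseudocount, and was -2.67 with a pseudocount of 0.5 and -1.25 with one of 5. Without pair 1, which held the count of 0, it was -1.47.

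KH.C11.259 had 19.4, 13.2 and 15.3 in the control libraries 1 to 3 and 7.62, 6.70 and 5.12 in CrBra libraries 1 to 3. KH.C10.68 and KH.C11.259 were under 10 in all 3 CrBra libraries, so they passed the filter through their control values only. Values of 10 or more in all 6 libraries were found for 25 of the 31. KH.L108.28 had 30.04, 24.4 and 22.4 in the control libraries 1 to 3 and 11.9, 12.3 and 5.12 in CrBra libraries 1 to 3, and its lowest value, in CrBra replicate 3, came from 5 reads.

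KH.L22.61 had 46.5, 40.7 and 39.7 in the control libraries 1 to 3 and 16.9, 16.7 and 11.26 in CrBra libraries 1 to 3, with even controls and no overlap. KH.C4.72 had 62.0, 48.8 and 21.4 in the control libraries 1 to 3 and 21.2, 17.9 and 11.26 in CrBra libraries 1 to 3. In this model the control of replicate 3 lay only just above the CrBra value of replicate 1. KH.C8.749 had 24.2, 83.4 and 34.6 in the control libraries 1 to 3 and 8.47, 21.2 and 12.3 in CrBra libraries 1 to 3, and its control was 3.44 times as high in replicate 2 as in replicate 1. The mean differences of these 3 models were -1.46, -1.26 and -1.59 in the same order.

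The other 16 models lay between these extremes, and are given as mean normalised counts ± SD over 3 libraries, with the mean log2 difference and the mean share of control kept over the pairs. 7 of them had mean differences from -1.96 to -1.77. KH.C12.600 averaged 77.2 ± 10.2 in CrGFP and 19.1 ± 1.95 in CrBra, a difference of -1.96 with 24.9% kept. KH.C4.103 had a mean of 62.7 ± 25.9 in CrGFP and 16.2 ± 9.50 in CrBra, a difference of -1.95 with 26.4% kept. KH.C12.336 was at 179.7 ± 57.3 in CrGFP and 49.5 ± 22.9 in CrBra, a difference of -1.87 with 28.2% kept. In these 3 every CrBra value lay under the lowest control. KH.C4.411 stood at 145 ± 59.2 in CrGFP and 40.3 ± 22.7 in CrBra, a difference of -1.86 with 28.2% kept. Its difference was largest in pair 2, at -2.50, and not in pair 1 as in the others of this group. KH.L99.8 gave 267 ± 26.3 in CrGFP and 74.8 ± 19.4 in CrBra, a difference of -1.85 with 27.8% kept. KH.L18.30 reached 614 ± 317 in CrGFP and 183 ± 109.8 in CrBra, a difference of -1.82 with 28.8% kept. In this group KH.L18.30 had the highest controls and the widest spread among them. KH.C3.77 averaged 61.2 ± 27.6 in CrGFP and 16.3 ± 2.37 in CrBra, a difference of -1.77 with 31.2% kept. Its CrBra values were even, from 13.5 to 17.9, under controls that ranged from 38.7 to 92.0.

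A further 6 had mean differences from -1.70 to -1.5. KH.L144.11 averaged 124 ± 41.3 in CrGFP and 36.1 ± 7.30 in CrBra, a difference of -1.70 with 31.7% kept. Its difference was largest in pair 3, at -2.23, and smallest in pair 2, at -1.12. KH.C12.687 had a mean of 279 ± 13 in CrGFP and 86.8 ± 13.8 in CrBra, a difference of -1.68 with 31.2% kept. Its control value was nearly the same in each replicate, from 271 to 294. KH.C2.872 was at 176 ± 29.4 in CrGFP and 54.7 ± 12.01 in CrBra, a difference of -1.68 with 31.1% kept. KH.C4.678 stood at 92.9 ± 12.1 in CrGFP and 29.97 ± 8.47 in CrBra, a difference of -1.63 with 33.5% kept. KH.C1.1281 gave 165 ± 34.7 in CrGFP and 55.5 ± 19.1 in CrBra, a difference of -1.59 with 34.4% kept. In KH.C4.678 and KH.C1.1281 the difference was smallest in pair 3, at -1.03 and -1.14. KH.C7.65 reached 486 ± 253 in CrGFP and 176 ± 107 in CrBra, a difference of -1.5 with 36.1% kept. Its groups overlapped by little, with 289 in CrGFP replicate 3 and 298 in CrBra replicate 2.

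The last 3 had mean differences from -1.47 to -1.21. KH.L22.67 averaged 129 ± 32.5 in CrGFP and 45.2 ± 5.72 in CrBra, a difference of -1.47 with 36.0% kept. KH.C1.1220 had a mean of 109.9 ± 12.1 in CrGFP and 41.7 ± 4.63 in CrBra, a difference of -1.38 with 38.0% kept. KH.C7.721 was at 55.2 ± 29.97 in CrGFP and 24.2 ± 14.6 in CrBra, a difference of -1.21 with 42.1% kept. The groups of KH.C7.721 overlapped, with 26.4 in CrGFP replicate 2 against 38.1 in CrBra replicate 1.

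Residual expression was counted as the CrBra value in percent of the CrGFP value with the same number. No model lost all of it, apart from the count of 0 for KH.C10.68 in pair 1. The mean over the pairs ran from 14.0% in KH.C10.448 to 42.3% in KH.L37.39, with a median of 31.2%. Under 20% was kept by 3 models, under 30% by 12 and under 40% by 27. KH.S1404.1 kept 31.4%, 35.3% and 29.6% in pairs 1, 2 and 3, and 18 of the 31 kept less on average than its 32.1%.

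The difference was deepest in pair 1 for most of the models. The median share kept was 23.7%, 32.9% and 35.3% by pair number, and the median log2 differences were -2.06, -1.55 and -1.48. Of the 31 models, 21 had their largest difference in pair 1, and pairs 2 and 3 held the largest of 5 models each. Among all tested models the lowest of the 3 differences was in pair 1 for 33.7% of models, while 29.1% had it in pair 2 and 37.2% in pair 3. Differences of -0.8 or lower were also more frequent in pair 1 over all tested models, at 2.45%, against 1.51% in pair 2 and 1.5% in pair 3. The pair differences chose the 31, so the comparison of pairs is a description. Of the 20 models with a control value of 100 or more, 15 were lowest in pair 1, and of the 11 with less, 6 were. KH.S1404.1 did not share this order, since its lowest share was in pair 3. The median difference over all tested models was 0.017, 0.003 and -0.005 in the 3 pairs. What pair 1 differs in was not tested, and its CrBra library had the most reads assigned to gene models of the 6, 16094085.

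Exact 95% binomial intervals (Clopper-Pearson) on the reads of each pair show how much of this spread counting alone allows. In 22 of the 31 models the 3 intervals of the share kept had a value in common. In the other 9 they did not, and these were KH.C1.832, KH.L20.18, KH.C12.336, KH.L18.30, KH.C2.33, KH.C3.21, KH.C1.1281, KH.C10.317 and KH.C7.65. The interval of pair 1 lay wholly under that of pair 2 in 8 models and wholly under that of pair 3 in 8, and in 0 models did it lie wholly above either. For KH.C1.832 the intervals of pairs 1, 2 and 3 were 9.79% to 11.5%, 22.1% to 25% and 21.4% to 24.6%. For KH.C10.317 they were 15.3% to 23.2%, 39.0% to 49.5% and 40.8% to 54.4%. Pair 3 of KH.C3.21 stood apart from pair 2 too, at 41.0% to 47.0% against 28.7% to 33.4%.

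**Figure D3:**
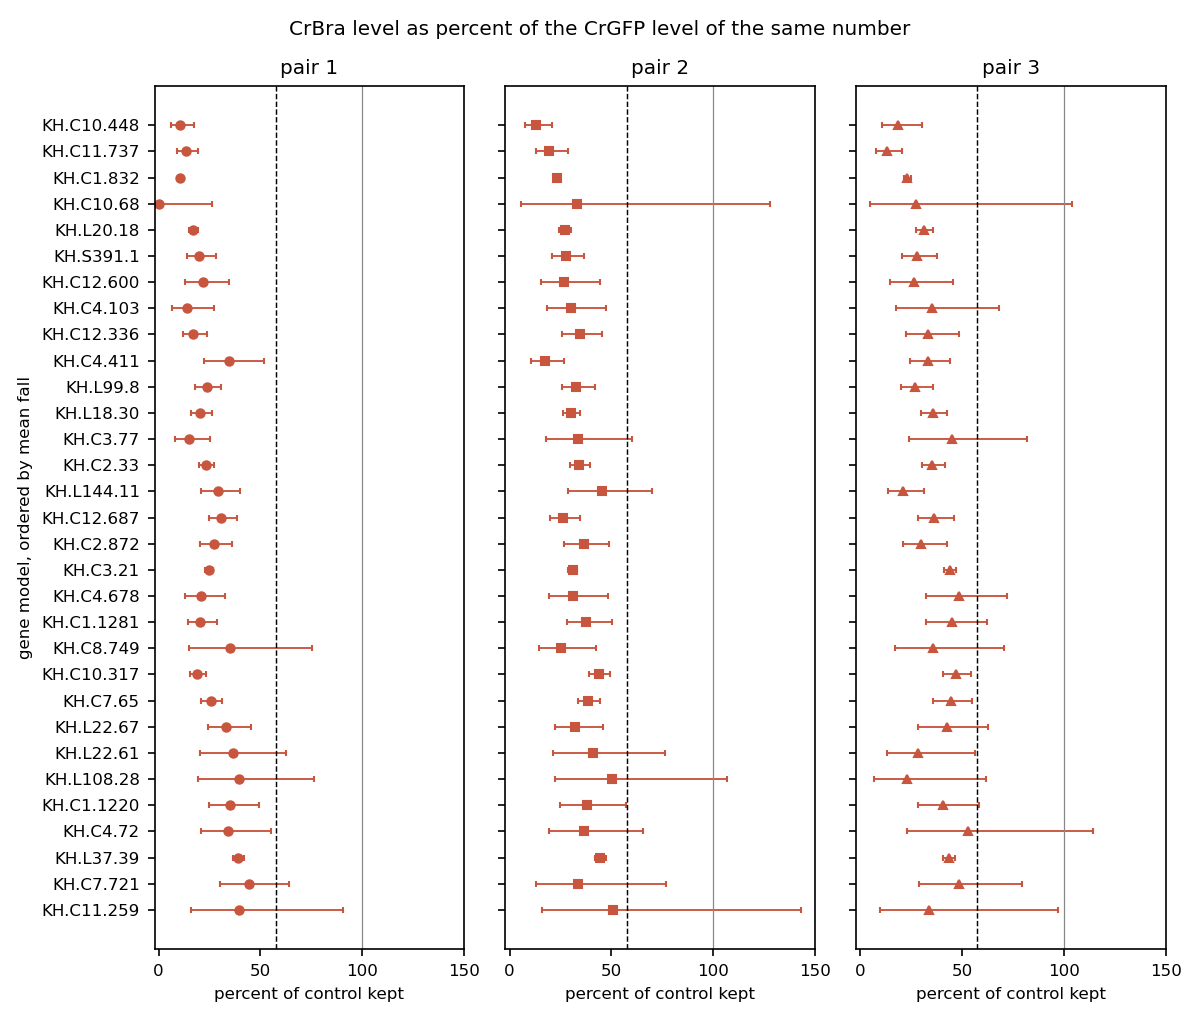
CrBra level as percent of the CrGFP level with the same replicate number, for the 31 models in pairs 1, 2 and 3, with exact 95% binomial intervals that cover counting error only. The dashed line is the share at the limit of the rule, 57.4%, the solid line is 100%, and the median share is 23.7%, 32.9% and 35.3% in the 3 panels.

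The limit of -0.8 equals 57.4% of control where the pseudocount has no weight. In 14 of the 31 models at least 1 of the 3 intervals reached above it, which was so for 25 of the 93 pair values. These 14 had a median control value of 58.2, and the highest among them was 165 (KH.C1.1281), so counting error bears on membership at low and middle levels. An interval also passed the control level in KH.C11.259 (142.9% in pair 2), KH.L108.28 (106.7% in pair 2) and KH.C4.72 (114.3% in pair 3). The same held for KH.C10.68 in pairs 2 and 3. In those pairs counting error did not exclude equal levels under both guides. Just inside the limit in their weakest pair were KH.C4.72 at -0.87, KH.C11.259 at -0.88 and KH.L108.28 at -0.94. Just outside were KH.C12.115, KH.C7.261 and KH.C3.724, each at -0.77.

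Of the 3 models outside, KH.C12.115 and KH.C7.261 had a mean control value above 1000. KH.C12.115 had 1354, 686 and 1117 in the control libraries 1 to 3 and 717, 402 and 639.5 in CrBra libraries 1 to 3, and its 3 differences ran only from -0.92 to -0.77. KH.C7.261 had 1686, 2712 and 1676 in the control libraries 1 to 3 and 430.2, 1315 and 984 in CrBra libraries 1 to 3. Its differences of -1.97, -1.04 and -0.77 had the same mean as those of KH.C4.72, -1.26, and only pair 3 kept it out. KH.C3.724 had 38.8, 53.9 and 79.4 in the control libraries 1 to 3 and 18.6, 31.3 and 38.9 in CrBra libraries 1 to 3.

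How many models each pair removed was counted by applying the limit in all but 1 replicate number and reading the number left out. The filter on low values used all 6 libraries, and the 31 meet the limit in every pair by the rule, so these shares are a description and support nothing about the 31. The limit in pairs 2 and 3 was met by 49 models, of which 31 were also at -0.8 or lower in pair 1, that is 63.3%, and the limit in pair 1 was met by 2.45% of all tested models. The limit in pairs 1 and 3 was met by 49, of which 31 (63.3%) were at -0.8 or lower in pair 2, and that limit was met by 1.51% of all. The limit in pairs 1 and 2 was met by 48, of which 31 (64.6%) were at -0.8 or lower in pair 3, and that limit was met by 1.5% of all. The 31 are the same models each time.

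The medians in the number left out were -1.48, -1.36 and -1.18 for pairs 1, 2 and 3, against -1.44, -1.54 and -1.55 in the numbers that chose the models. CrBra was lower in 41 of 49, 43 of 49 and 43 of 48 models in the pair left out, against 45.9%, 49.0% and 51.3% of all tested models. The 31, which meet the limit in every pair by the rule, are part of each of these counts and medians, so nothing is read from them. The models that did not meet the limit in the pair left out were 18, 18 and 17, and their median differences there were -0.10, -0.15 and -0.34. Their median control values were 19.1, 43.4 and 20.9, below the 145 of the 31. In the opposite direction, 21, 19 and 23 models were higher by 0.8 or more in the numbers that chose, and 6 of them in all 3.

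**Figure D4:**
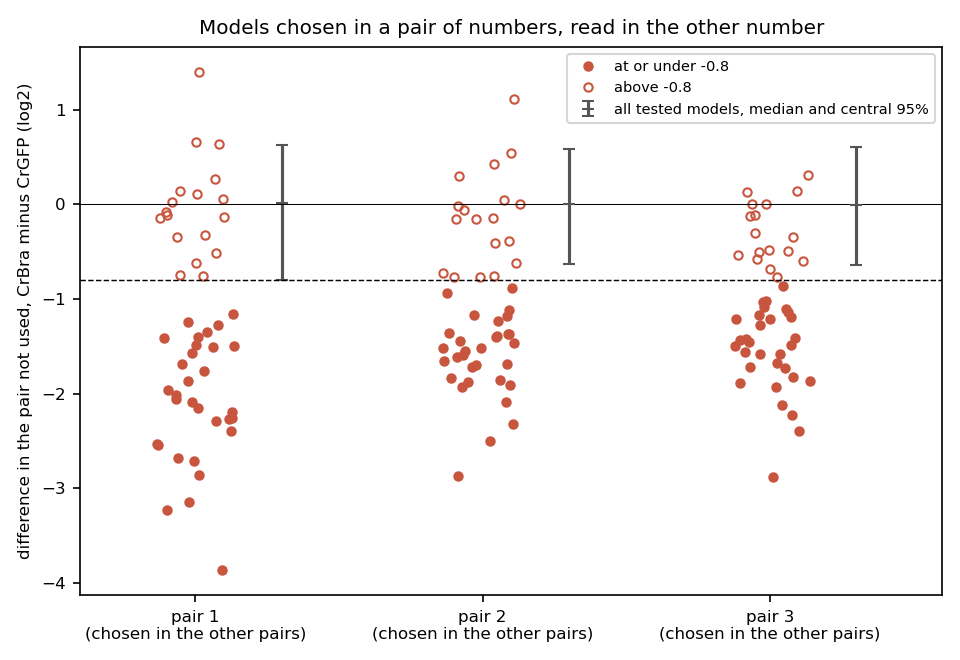
Difference (log2, CrBra minus CrGFP) in the pair left out, for models at or under -0.8 in the other pairs (49, 49 and 48 models). Filled points are the 31 models at or under -0.8 (dashed line), open points the rest, and the grey bar gives the median and central 95% of all 11953 tested models.

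Variation among the replicate numbers, averaged over the guides, was not used by the rule and was tested. A limma F test over the 3 numbers that allowed for the guide, adjusted by Benjamini-Hochberg over all 11953 models, called 14 of the 31 (45.2%) at an adjusted p under 0.05, against 73.4% of all tested models. The median range among numbers was 0.60 (log2) in the 31 and 0.56 over all tested models. A range of 1 or more was found in 8 of the 31 and in 21.4% of all. The error of this test is the spread of the pair differences, which chose the models, so the test is not independent of the rule. The median range over pairs was 0.76 in the 31 and 0.26 over all, and the part of this spread in the count was not tested. By level, 3 of 4 models with a control value of 1000 or more were called, 7 of 16 from 100 to 1000 and 4 of 11 under 100, against 84.0%, 77.2% and 53.4% of all tested models. Without CrBra replicate 2 the test called 9 of the 31 and 56.2% of all.

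KH.L18.30 had the lowest adjusted p among the 31 (0.000179 in limma), with a range of 1.72. Its normalised count was 355, 968 and 519 in the control libraries 1 to 3 and 72.8, 292 and 185 in CrBra libraries 1 to 3, so replicate 2 was highest and replicate 1 lowest with either guide. KH.C7.65 was also highest in replicate 2 with either guide, at 398, 772 and 289 in the control libraries 1 to 3 and 102, 298 and 127.9 in CrBra libraries 1 to 3 (adjusted p = 0.000429 in limma). KH.C7.721 had the widest range, 1.82, and the other order, with 86.2, 26.4 and 52.9 in the control libraries 1 to 3 and 38.1, 8.93 and 25.6 in CrBra libraries 1 to 3 (adjusted p = 0.00102 in limma). It was the single model whose range among numbers exceeded its mean difference between the guides. The rule chose models with large differences between the guides, so nothing is read from this. KH.C10.317, KH.C8.749, KH.C4.411, KH.C4.72 and KH.C4.103 also ranged by 1 or more, at 1.53, 1.49, 1.22, 1.17 and 1.09.

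Replicate 2 was highest in 17 of the 31 models, against 34.9% of all tested models. It was highest in 11 of the 14 that passed, and the matching share among all tested models that passed was not computed. In the controls alone the highest value was in replicate 1 for 16 models, in replicate 2 for 14 and in replicate 3 for 1, against 34.0%, 33.9% and 32.0% of all tested models. In the CrBra libraries it was in replicate 1 for 6, in replicate 2 for 20 and in replicate 3 for 5, against 36.4%, 35.6% and 28.0% of all. The lowest CrBra value was in replicate 1 for 18 models. The 3 numbers stood in the same order in both groups in 9 of the 31 models (29.0%) and in 60.9% of all tested models. The median range over the 3 control libraries was 0.53 in the 31 and 0.58 over all, and over the 3 CrBra libraries it was 0.79 and 0.58. Counts and ranges within a single group, and the shared order, depend in part on the pair differences that chose the models. The 31 also had lower control values (median 145 against 418 over all), and nothing about the models is read from these comparisons.

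**Figure D5:**
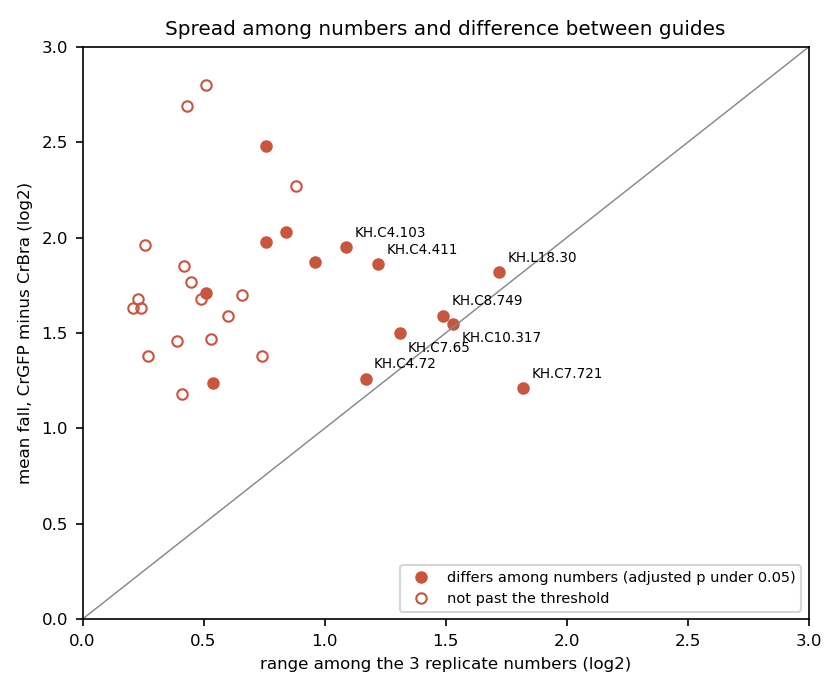
Mean fall (CrGFP minus CrBra, log2) of each of the 31 models against its range among the 3 replicate numbers (log2, averaged over the guides). Filled points passed the limma test among numbers (14 models, adjusted p under 0.05), and models with a range of 1 or more are named. The line marks equal size, and KH.C7.721 lies under it. The rule chose the models by their falls, so nothing is read from the side of the line.

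Model fits on the contrast that chose the models are given for completeness. limma on log2(value + 1) without the replicate number called 0 of the 31 models, and 0% of all tested models as lower, with 30 of the 31 and 0.443% of all lower at an unadjusted p under 0.05. Also without it, edgeR called 0 of the 31 and 0% of all, and DESeq2 18 of the 31 and 0.167% of all. With the replicate number as a block limma called 24 of the 31, and 0.385% of all tested models as lower. The other 7 were KH.C10.68, KH.C3.77, KH.L22.61, KH.L108.28, KH.C4.72, KH.C7.721 and KH.C11.259, all with a mean control value under 100. Nothing about the models is read from these counts, since the same differences chose them.

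The authors' second set of values, regularized log2 counts, gave the same direction for all 31 models with smaller sizes. The median difference was -0.65 against -1.68 on the log2(value + 1) scale. The share of the log2 difference that remained rose with level, from a median of 20.5% in the 11 models with control values under 100, to 38.7% in the 16 from 100 to 1000 and 59.9% in the 4 above. It was lowest in KH.C10.68, with -0.13 against -2.27. KH.C1.832 had the largest regularized difference, -1.48, followed by KH.L20.18 at -1.16 and KH.C3.21 at -0.98. KH.C10.448, first on the log2(value + 1) scale, had -0.88. The order of the models by size of difference thus depends on which of the deposited sets of values is used.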

How the data were processed

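RNA from whole embryos was measured by RNA-seq in 6 libraries made with a stranded mRNA kit, per the labels' protocols. TopHat2 (2.9.8b) and DESeq (1.8.1) are named in the submitters' processing notes. The counting tool, strand setting and genome build are not given in the sources used here. Per the file headers, the deposited table holds a normalised signal, which is the count divided by 1 factor per library, and regularized log2 values of the same counts. All 12 value columns were matched by name, with 0 unused. In each column 100% of the normalised values were whole multiples of 1 read within 0.01 reads, and these recovered reads gave the counting intervals and count models.

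The members and lists were chosen with earlier results of these data known. Tests used limma 3.58.1 (trended variance, R 4.3.3) on log2(value + 1), two-sided, with Benjamini-Hochberg adjustment at 0.05, on models with a value of 10 or more in 3 libraries. edgeR 4.0.16 and DESeq2 1.42.0 on recovered reads were alternatives. The rule took libraries of the same number as pairs, and these deviated together from their group means (correlations 0.86, 0.88 and 0.82). The main fit of the guides had no block, and fits with the replicate number as a block were alternatives. What a number shares is not labelled, so p-values measure the spread between these samples only. In fits without a block this is the spread between the libraries of a group. In fits with the replicate number, the test among numbers included, it is the spread of the pair differences.

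Values in every library are given for the 6 models with the largest fall, the 6 with the highest and the 6 with the lowest control level, and the 3 nearest the limit on either side. Those of KH.L18.30, KH.C7.65 and KH.C7.721 were added after their values were seen.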

Additional observations from a re-analysis of the deposited data

How the results depend on the processing

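The number of models found by the rule was 31. It was 32 with a pseudocount of 0.5, 28 with one of 5, 31 with TMM scaling, 30 with scaling to library totals, 21 at 5 CPM or more in 3 libraries, 28 at a limit of -1 and 44 at a limit of -0.6. It was 58 with no filter, which adds 27 models below the filter, and 48 to 49 without each replicate number, where fewer conditions apply. Scalings moved the median of all tested models by 0.02 at most. The median log2 difference was -1.69 to -1.60 over pseudocounts and scalings and -1.82 to -1.52 without each number, and -0.65 in the regularized log block, whose transform shrinks differences. For single models, 29 of 31 stayed within 1 SD of the pairs with a pseudocount of 5. Under the other pseudocount and the scalings, 31 of 31 did. None changed sign under the scalings. The rule requires a lower CrBra value in every pair, so no sign could change with another pseudocount or without a number. Nothing is read from the signs in those settings.

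Counts called lower are given for the 31, with the share over all tested models in brackets. Limma without the replicate block and edgeR without it called 0 (0%), also in limma without each single library, and DESeq2 without it called 18 (0.167%). With the replicate block the counts were 24 (0.385%) in limma, 26 in edgeR with TMM (0.452%) or DESeq2 size factors (0.46%), 24 (0.46%) in DESeq2, 24 (0.376%) and 25 (0.427%) in limma with pseudocounts of 0.5 and 5, 18 (0.183%) in limma with every model that had a read, 19 (0.346%) at 5 CPM, 18 (0.218%) at a 1% threshold, and 17 to 26 (0.201% to 0.736%) without each number. The models differing among numbers were 14 (73.4% of all tested models), 8 (55.5%) at a 1% threshold, 9 (78.9%) at 5 CPM, where fewer are tested, and 9 to 18 (56.2% to 72.7%) without each library. They were 9 (56.2%) without CrBra replicate 2 and 10 (56.9%) without CrGFP replicate 2. The counts in the pair left out were 28 to 32 over pseudocounts and TMM scaling. Where no reason is named, the cause of a shift was not tested. With 5 reads or fewer in a library, as in KH.C10.68, KH.L108.28 and KH.C11.259, depth limits the values.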

Other observations

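The identifiers of the 31 models were spread over 17 prefixes, a prefix being the identifier without its last number. KH.C4 held 4 of the models, KH.C1, KH.C10 and KH.C12 held 3 each, and KH.C2, KH.C3, KH.C7, KH.C11 and KH.L22 held 2 each. Identifiers that start with KH.C made up 71.0% of the 31 and 69.7% of all tested models, those with KH.L 25.8% and 19.99%, and those with KH.S 3.23% and 10.33%. Distances between models were not analysed here.

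Below the filter on low values, 27 of 3331 models also met the limit of -0.8 in all 3 pairs. They had values of 10 or more in fewer than 3 libraries and were not analysed further.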
